A study of Mus musculus with 12 samples.

Results

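The genes described here are 40 antioxidant and glutathione genes of the mouse. Their levels were compared on day 6 between untreated preadipocytes and cells induced to become fat cells, with or without a plant flavonoid. The genes were chosen by name, and all 40 were found among the 54532 genes of the deposited count table. By role they are 2 regulators, 4 genes of glutathione synthesis and recycling, 3 of the thioredoxin system, 4 superoxide dismutase and catalase genes, 5 glutathione peroxidases, 6 peroxiredoxins, 10 glutathione transferases, 4 genes of heme and iron handling, and 2 of quinone and epoxide detoxification. In all, 39 of them passed the low-count filter and were tested among 14855 genes. Gpx3, the secreted glutathione peroxidase, did not pass, at 0.059 to 0.873 CPM (counts scaled to a common library size) over the 12 libraries.

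Superoxide made by mitochondria and oxidases is turned by superoxide dismutases into hydrogen peroxide, which catalase, glutathione peroxidases and peroxiredoxins then reduce. Glutathione peroxidases and transferases draw on the tripeptide glutathione, and peroxiredoxins on thioredoxin, and both carriers are recharged with electrons from NADPH. Many of these genes are known targets of the transcription factor NRF2 (gene Nfe2l2), which KEAP1 holds in the cytoplasm and marks for degradation until electrophiles or oxidants modify it. Fat cells are rich in NADPH and mitochondria, and the balance of oxidants is known to bear on adipocyte differentiation and insulin response.

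RNA came from 3T3-L1 cells, a clonal mouse embryo fibroblast line of wild-type genotype whose confluent preadipocytes become fat-storing adipocytes when given hormones. All libraries were taken on day 6, with 3 in each of 4 groups. The untreated group was labelled as preadipocytes. The DMI group received 0.5 mM IBMX (3-isobutyl-1-methylxanthine), 1 uM dexamethasone and 10 ug/ml insulin to start differentiation, and the remaining groups received DMI with luteolin or DMI with quercetin. Medium with 10% fetal bovine serum was common to all groups. Luteolin is a flavone and quercetin the flavonol that carries an added hydroxyl group on the central ring. Their doses and exposure times are not given in the labels, so their values are set side by side at doses not known to match. The labels do not say that replicates came from separate cultures. Each p-value thus sets a difference against the spread between these libraries only, estimated jointly over all 4 groups.

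Library totals ran from 14522182 to 19436796 counts, of which these 40 genes took between 0.678% and 1.15%. The summed level of 10 mature adipocyte markers was 50.2 to 68.6 CPM in the untreated libraries, 11822, 14751 and 3286 CPM in DMI libraries 1, 2 and 3, 6290, 7347 and 2577 CPM with luteolin, and 3871, 3859 and 730 CPM with quercetin. The third library of each induced group was thus the lowest for these markers. In the sum of 8 preadipocyte and fibroblast markers it was the highest of its group, at 46855 CPM with DMI against 31029 and 30164 CPM. Macrophage, endothelial and epithelial markers summed to at most 10.4, 2.98 and 0.327 CPM in any library. The sum of 5 muscle markers was 1.27 to 2.36 CPM untreated and 26.2, 27.3 and 8.62 CPM with DMI, where Des, the 1 of them tested, rose (log2 3.43, edgeR adjusted p = 0.0012). That of 6 osteoblast and chondrocyte markers was 57.2 to 59.3 CPM untreated and 34.2 to 45.0 CPM with DMI, where Runx2, the 1 tested, fell (log2 -0.63, adjusted p = 0.0071). Mitochondrial transcripts made up 1.85% to 1.91% of counts untreated and 2.87% to 4.73% in the induced libraries. In bulk RNA, more cells that had differentiated and more RNA of a gene per differentiated cell cannot be told apart. The part of these marker and mitochondrial differences in the results on the antioxidant genes was not tested.

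NRF2 binds the antioxidant response element, whose core was searched as TGACNNNGC on both strands of RefSeq promoter windows (GRCm38.p6, 250 bases before to 50 after the start of a gene). Of the 34 genes with a window, 9 held the core (26.5%), against 14.0% of all 27025 genes with a window of this length. They were Nfe2l2 itself, Gclm, Txnrd1, Srxn1, Sod1, Prdx1, Gsta3, Gstm5 and Mgst1. Among them Gclm, Sod1, Gsta3 and Mgst1 rose with DMI and Gstm5 fell. Nfe2l2, Txnrd1, Srxn1 and Prdx1 did not pass the test described below. Windows are shown for 3 of the 4 genes with the core that rose with DMI (Gclm, Mgst1 and Gsta3), and for Nqo1 and Fth1, which were above DMI in all 6 flavonoid libraries and whose windows did not hold it. They lie at chr3:122245307-122245606 (Gclm, plus strand), chr6:138140277-138140576 (Mgst1, plus strand), chr1:21240335-21240634 (Gsta3, plus strand), chr8:107403156-107403455 (Nqo1, minus strand) and chr19:9982396-9982695 (Fth1, plus strand). Each is written 5′ to 3′ along the gene, with the core in capitals. In Gclm and Mgst1 the core lies on the opposite strand, and so reads from its last base here.
Gclm: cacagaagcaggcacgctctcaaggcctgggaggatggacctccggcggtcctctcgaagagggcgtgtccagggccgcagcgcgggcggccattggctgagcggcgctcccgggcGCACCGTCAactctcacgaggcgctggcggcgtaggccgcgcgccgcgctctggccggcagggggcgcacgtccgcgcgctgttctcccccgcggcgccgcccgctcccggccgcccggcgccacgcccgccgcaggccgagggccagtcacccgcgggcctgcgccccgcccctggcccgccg
Mgst1: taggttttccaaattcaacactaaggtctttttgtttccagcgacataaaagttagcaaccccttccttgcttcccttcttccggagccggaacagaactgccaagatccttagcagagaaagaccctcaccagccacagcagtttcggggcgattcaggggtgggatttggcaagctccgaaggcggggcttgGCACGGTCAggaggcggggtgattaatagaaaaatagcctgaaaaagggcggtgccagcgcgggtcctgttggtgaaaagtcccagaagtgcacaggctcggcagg
Gsta3: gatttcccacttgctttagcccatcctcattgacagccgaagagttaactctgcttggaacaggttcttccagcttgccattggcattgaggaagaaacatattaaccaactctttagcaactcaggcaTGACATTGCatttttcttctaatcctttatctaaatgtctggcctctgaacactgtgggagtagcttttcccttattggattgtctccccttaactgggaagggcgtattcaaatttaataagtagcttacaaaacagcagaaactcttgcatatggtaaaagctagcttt
Nqo1: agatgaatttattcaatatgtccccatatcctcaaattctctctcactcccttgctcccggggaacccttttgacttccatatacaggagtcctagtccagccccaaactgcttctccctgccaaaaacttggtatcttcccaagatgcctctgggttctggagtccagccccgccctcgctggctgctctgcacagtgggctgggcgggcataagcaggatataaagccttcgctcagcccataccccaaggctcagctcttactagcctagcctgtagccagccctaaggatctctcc
Fth1: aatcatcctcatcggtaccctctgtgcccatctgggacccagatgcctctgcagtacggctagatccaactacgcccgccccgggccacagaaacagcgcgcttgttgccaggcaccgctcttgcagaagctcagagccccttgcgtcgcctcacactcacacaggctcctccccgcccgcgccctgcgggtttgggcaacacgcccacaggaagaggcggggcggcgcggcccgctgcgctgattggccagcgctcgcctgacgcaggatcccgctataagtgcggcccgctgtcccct
The core began 134 bases before the start in Gclm, 56 in Mgst1 and 121 in Gsta3. A match of these letters is not shown to be a bound site, and its absence from 300 bases says nothing of binding elsewhere.

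The first question was how the antioxidant genes differ on day 6 between cells given DMI and untreated cells. Differentiation and a direct response to IBMX, dexamethasone or insulin cannot be told apart in this design. With DMI, 11 of the 39 tested genes rose and 4 fell (edgeR quasi-likelihood test, adjusted p under 0.05). Over all genes 27.1% passed in either direction, 14.7% higher and 12.4% lower. The median log2 fold change was 0.27 over the antioxidant genes and -0.04 over all genes. The genes that rose were Cat, Sod1 and Sod2 of the catalase and superoxide dismutase genes, the peroxiredoxin Prdx3, the glutathione peroxidase Gpx4, Gclm and Gss of glutathione synthesis, and the glutathione transferases Mgst1, Mgst3, Gsta3 and Gsta4. The 4 that fell, Gsto1, Prdx4, Gpx7 and Gstm5, included a peroxiredoxin and a glutathione peroxidase of the endoplasmic reticulum.

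The regulators did not pass the test. Nfe2l2 mRNA was 101, 95.3 and 96.9 CPM untreated and 100, 98.0 and 89.8 CPM with DMI, a log2 difference of -0.03 with a 95% confidence interval of -0.29 to 0.24. Keap1 was 66.3, 72.5 and 75.2 CPM untreated and 78.1, 88.1 and 75.5 CPM with DMI (log2 difference 0.18, interval -0.09 to 0.44). The ranges of Nfe2l2 overlapped and those of Keap1 were just separate. Levels of mRNA do not measure NRF2 protein.

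**Figure D1:**
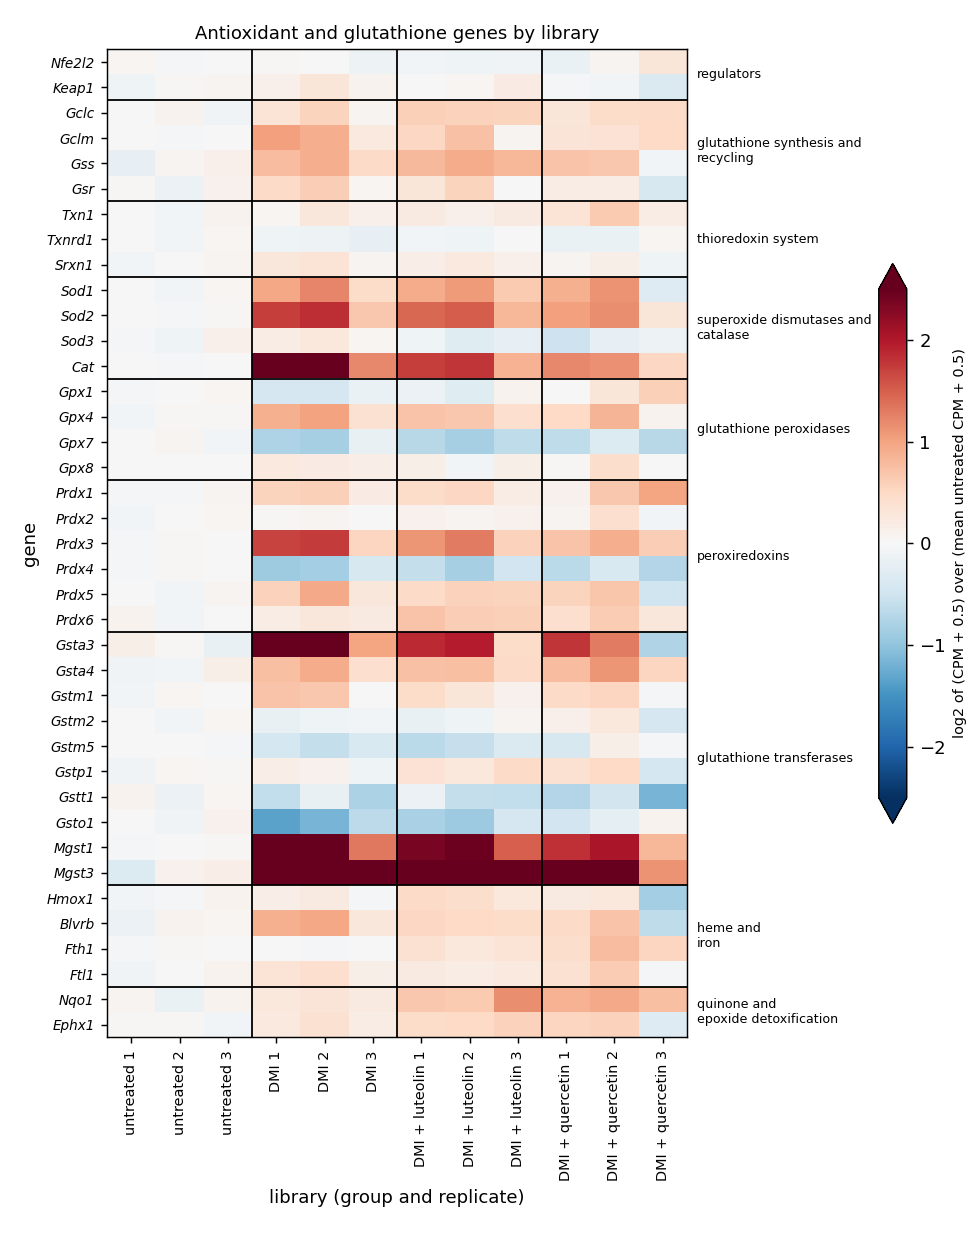
Each cell gives the log2 ratio of a gene's CPM in 1 library to the mean of the 3 untreated libraries, with 0.5 CPM added to both; genes (vertical) are ordered by role and libraries (horizontal) by group, and Gpx3, which was not tested, is left out. Mgst3, Mgst1, Cat, Sod2 and Prdx3 were above the untreated mean in all 9 induced libraries, with the third library of each induced group the palest for Cat and Mgst1.

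Of the 4 superoxide dismutase and catalase genes, 3 rose with DMI. Cat, the peroxisomal enzyme that splits hydrogen peroxide (chr2:103453849-103485160, minus strand, GRCm38), stood at 87.1, 84.6 and 87.4 CPM untreated and at 492, 499 and 199 CPM with DMI. The groups did not overlap, and the third DMI library was the lowest of its group. Cat rose 4.59-fold (log2 2.20 with an SE of 0.34, edgeR adjusted p = 0.00096).

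Sod2, the mitochondrial superoxide dismutase, was 60.5, 57.8 and 61.6 CPM untreated and 201, 217 and 96.4 CPM with DMI. It rose 2.86-fold (log2 1.51, SE 0.30, edgeR adjusted p = 0.0036), again without overlap and with the third DMI library lowest. Sod1, the cytosolic enzyme, went from 113, 107 and 116 CPM to 220, 264 and 154 CPM. Its rise of 1.90-fold (log2 0.92, SE 0.30, edgeR adjusted p = 0.036) was not stable to the libraries used. Without any 1 of the 3 untreated libraries, DMI library 1, DMI library 2 or luteolin library 1, its adjusted p lay between 0.051 and 0.15. Sod3, which is secreted and acts outside the cell, did not pass: it was 131 to 154 CPM untreated and 145 to 168 CPM with DMI (log2 0.17, interval -0.11 to 0.45).

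Among the peroxiredoxins, enzymes that reduce peroxides through a reactive cysteine, the mitochondrial and the endoplasmic reticulum members moved in opposite directions. Prdx3, of mitochondria, was 57.5, 59.9 and 59.7 CPM untreated and 191, 199 and 86.3 CPM with DMI. It rose 2.69-fold (log2 1.43, SE 0.27, edgeR adjusted p = 0.0029), with no overlap between the groups. Prdx4, of the endoplasmic reticulum, was 142, 148 and 143 CPM untreated and lower, at 77.8, 80.1 and 109 CPM, in every DMI library. Its log2 fold change was -0.70. Prdx1, Prdx2, Prdx5 and Prdx6 did not pass, with log2 differences of 0.46, 0.03, 0.63 and 0.24.

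Of the glutathione peroxidases, Gpx4 rose and Gpx7 fell. Gpx4, which reduces lipid hydroperoxides in membranes and restrains ferroptosis, was 195, 208 and 208 CPM untreated and 375, 412 and 264 CPM with DMI, with no overlap. It rose 1.72-fold (log2 0.78, SE 0.20, edgeR adjusted p = 0.013), but without untreated library 1, DMI library 1 or DMI library 2 the adjusted p was 0.054 to 0.070. Its pseudogene copy Gpx4-ps2 held 8125 counts against 57701 for Gpx4 over all libraries and had a log2 fold change of 0.93, so reads shared between the copies leave the exact level uncertain. Gpx7, of the endoplasmic reticulum, was 46.0 to 50.4 CPM untreated and 27.9, 27.0 and 42.2 CPM with DMI. Gpx1, the abundant cytosolic enzyme, was 252, 261 and 268 CPM untreated and 195, 194 and 231 CPM with DMI, lower without overlap, but did not pass (log2 -0.33, interval -0.68 to 0.02, edgeR adjusted p = 0.14). Gpx8 also did not pass (log2 0.20, interval -0.08 to 0.49).

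The largest fold changes were in glutathione transferases, enzymes that join glutathione to electrophiles. Mgst3, a microsomal transferase (chr1:167371966-167393841, minus strand), was 5.97, 8.29 and 8.70 CPM untreated and 130, 180 and 59.8 CPM with DMI. The groups were far apart, and Mgst3 rose 16.1-fold (log2 4.01, SE 0.61, edgeR adjusted p = 0.00094). Its relative Mgst1 (chr6:138140316-138156755, plus strand), which sits in the endoplasmic reticulum and outer mitochondrial membrane, was 98.0, 103 and 103 CPM untreated and 601, 622 and 253 CPM with DMI. Mgst1 rose 4.85-fold (log2 2.28, SE 0.38, edgeR adjusted p = 0.0014). Gsta3, an alpha class transferase, was near the limit of counting, at 0.435, 0.358 and 0.242 CPM untreated (4 to 7 counts) and 5.10, 6.03 and 1.17 CPM with DMI (81, 88 and 19 counts). Its 11.6-fold rise (log2 3.54, SE 0.97, edgeR adjusted p = 0.019) came with a wide interval of 1.43 to 5.65 on the log2 scale, and Gsta3 passed the filter only through the groups where it was high. Without any 1 untreated library, DMI library 1 or DMI library 2 the adjusted p was 0.057 to 0.071.

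Gsto1, an omega class transferase that also reduces dehydroascorbate (chr19:47854970-47864790, plus strand), moved the other way. It was 203, 192 and 221 CPM untreated and 81.2, 91.0 and 131 CPM with DMI. No DMI library reached the untreated range, and Gsto1 fell 2.03-fold (log2 -1.02, SE 0.20, edgeR adjusted p = 0.0038). Gstm1, Gstm2, Gstp1 and Gstt1 did not pass, with log2 differences of 0.50, -0.12, 0.06 and -0.55.

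In glutathione synthesis, Gclm, the modifier subunit of the rate-limiting ligase, was 41.6, 40.4 and 41.3 CPM untreated and 83.7, 77.8 and 48.9 CPM with DMI. It rose 1.71-fold (log2 0.77, SE 0.20, edgeR adjusted p = 0.014), and without untreated library 2, DMI library 1 or DMI library 2 the adjusted p was 0.052 to 0.077. The catalytic subunit Gclc did not pass: it was 17.6 to 19.9 CPM untreated and 23.8, 27.7 and 19.6 CPM with DMI, which overlap (log2 0.34, interval 0.04 to 0.64, edgeR adjusted p = 0.086). Gss, the enzyme that completes glutathione, was 9.95 to 12.7 CPM untreated and 16.4 to 22.3 CPM with DMI and passed. Gss shares 395 exon bases with Acss2 on the opposite strand, whose log2 fold change was 2.22 (10.4 CPM untreated, 48.6 CPM with DMI). No source used here states whether counting used strand, so the part of Acss2 reads in the Gss level was not tested. Gsr, which recycles oxidised glutathione, did not pass (log2 0.40, interval -0.03 to 0.83).

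The remaining 5 called genes, Gss, Gsta4, Prdx4, Gpx7 and Gstm5, had log2 fold changes of 0.76, 0.72, -0.70, -0.58 and -0.47, with edgeR adjusted p from 0.0067 to 0.037. Gsta4, which conjugates lipid aldehydes such as 4-hydroxynonenal, was 35.6, 36.0 and 41.8 CPM untreated and 63.9, 72.2 and 50.5 CPM with DMI, without overlap, and lost its call without DMI library 2 (adjusted p = 0.053). Gpx7 lost its call without any 1 untreated library or DMI library 1 or 2 (adjusted p 0.069 to 0.13), and Gstm5 without those or luteolin library 2 (0.053 to 0.15). Gss lost it without untreated library 1 or DMI library 1 or 2 (0.063 to 0.082). Mgst3, Mgst1, Cat, Sod2, Prdx3, Gsto1 and Prdx4 kept theirs under each of the 22 alternatives tried. Gstm5 shares 178 exon bases with 4933431E20Rik on the opposite strand (20.0 CPM untreated, 17.6 CPM with DMI). The part of 4933431E20Rik reads in the Gstm5 level was not tested.

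Thioredoxin system, heme and quinone genes did not pass with DMI. Txn1, thioredoxin itself, had a log2 difference of 0.15 (interval -0.13 to 0.44), its reductase Txnrd1 -0.15 (-0.38 to 0.08), and Srxn1, which repairs overoxidised peroxiredoxins, 0.24 (-0.01 to 0.49). Heme oxygenase Hmox1 had 0.12 (-0.37 to 0.61), the ferritin heavy chain Fth1 -0.02 (-0.30 to 0.26) and the light chain Ftl1 0.31 (-0.04 to 0.66). Blvrb, biliverdin reductase B, was 25.0 to 29.4 CPM untreated and 33.6 to 54.1 CPM with DMI without overlap (log2 0.75, edgeR adjusted p = 0.063). Nqo1, the quinone reductase, had 0.28 (-0.07 to 0.63) and Ephx1, microsomal epoxide hydrolase, 0.27 (-0.14 to 0.68). Several genes often read as NRF2 targets thus showed intervals that span 0 in the main fit, whose spread estimate draws on all 12 libraries. With only the 6 libraries compared, 22 antioxidant genes passed, where 32.1% of all genes did. Srxn1, Ftl1, Blvrb and Ephx1 were among them, and Txn1, Txnrd1, Hmox1, Fth1 and Nqo1 were not.

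**Figure D2:**
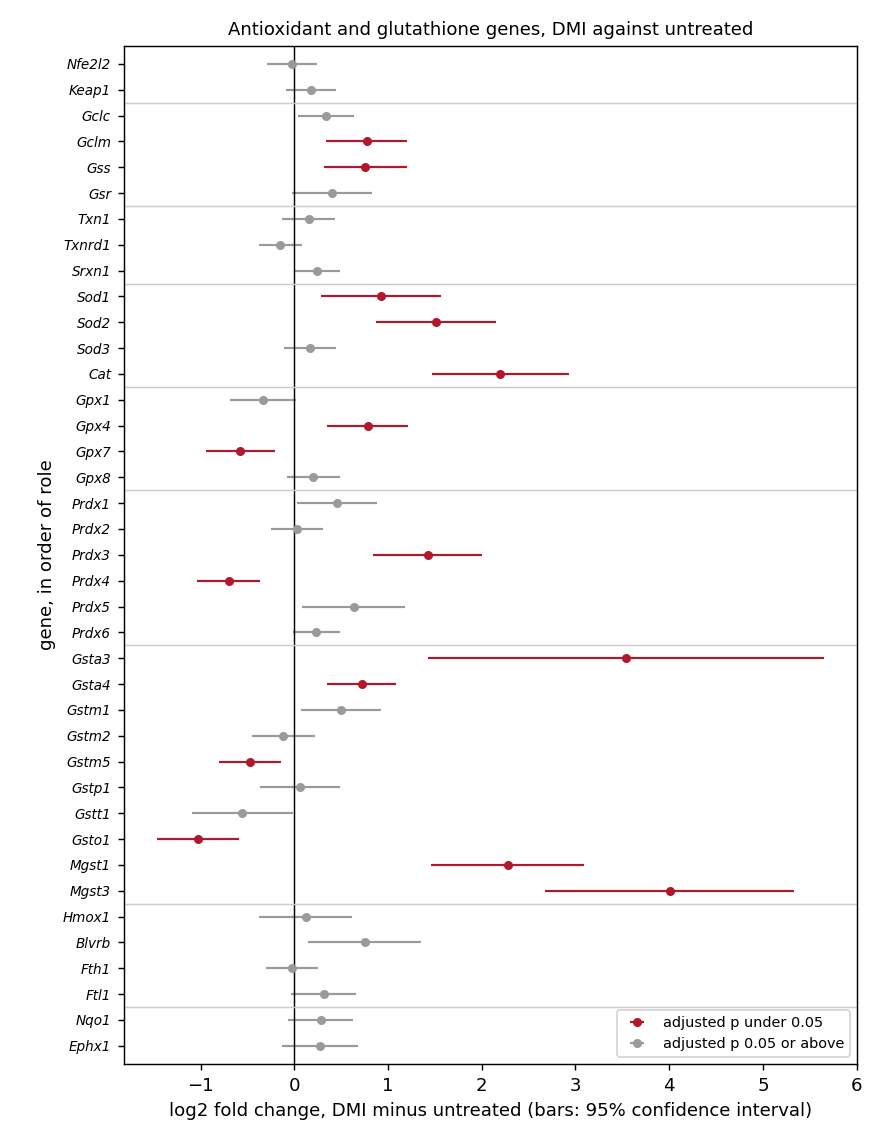
Points give the log2 fold change of each of the 39 tested genes, DMI minus untreated (horizontal), with 95% confidence intervals, 3 libraries a group; red marks an edgeR adjusted p under 0.05. Mgst3 at 4.01, Gsta3 at 3.54, Mgst1 at 2.28 and Cat at 2.20 lie farthest right, and Gsto1 at -1.02 farthest left.

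Counting library by library, 21 genes were higher in all 3 DMI libraries than in any untreated one (22.7% of all genes) and 8 were lower (29.4% of all genes). The third DMI library was the lowest of its group for 11 of the 11 genes that rose and the highest for 4 of the 4 that fell. With luteolin the third library was the lowest for 10 of those 11 and the highest for 4 of 4, and with quercetin the lowest for 10 of 11. Of the 4 genes that fell, quercetin library 3 was the highest of its group for 1 and the lowest for 2. The median coefficient of variation over the 39 genes was 4.60% untreated, 15.2% with DMI, 8.90% with luteolin and 20.5% with quercetin. With library 3 of every induced group left out, a choice made after seeing the adipocyte marker levels, 30 antioxidant genes passed in place of 15, where 52.8% of all genes passed. Leaving out these libraries by construction changes both the spread and the means of the induced groups. The part of either in these counts was not tested. By the authors' deposited table, 23 of these genes pass 0.05 for DMI against untreated, 19 higher and 4 lower. The share of all genes that pass there was not computed.

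**Figure D3:**
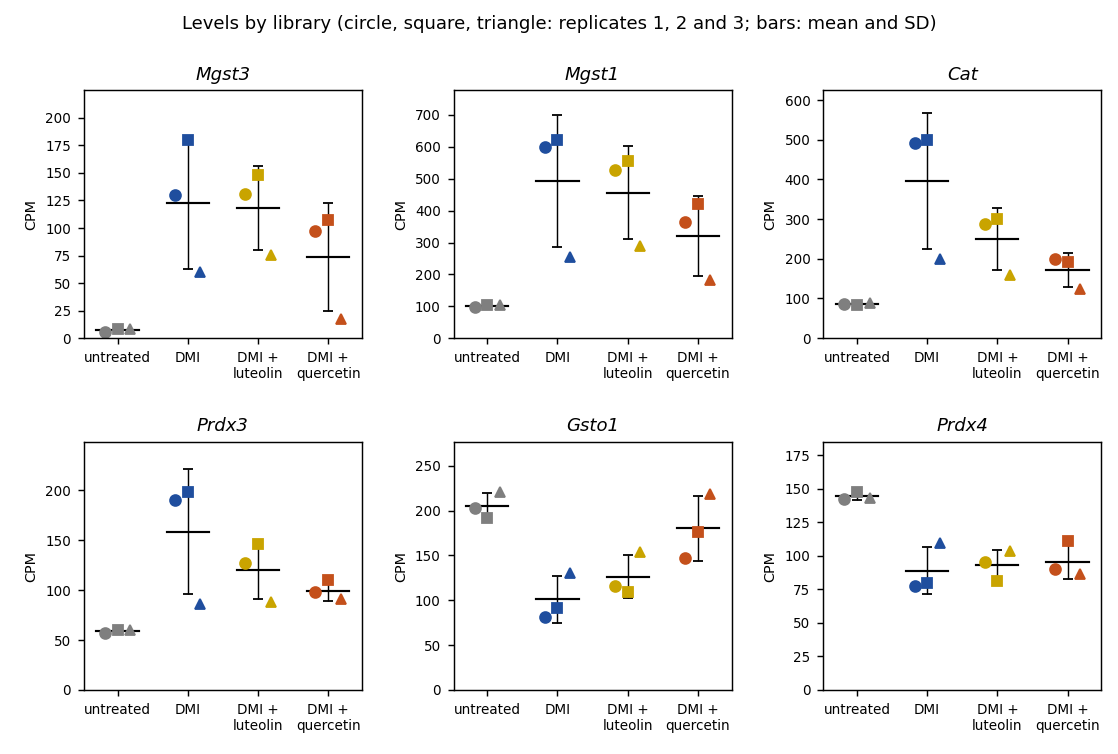
CPM (vertical) of 6 genes in every library by group (horizontal), with the mean and SD of 3 libraries; circles, squares and triangles are replicates 1, 2 and 3. Mgst3, Mgst1, Cat and Prdx3 were high in DMI libraries 1 and 2 and lower in library 3, and Gsto1 and Prdx4 showed the inverse order.

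Per unit of transcript length, by the FPKM values the authors deposited, ferritin was the most abundant product in all 4 groups. Fth1 averaged 3119 FPKM untreated, 3164 with DMI, 4025 with luteolin and 4798 with quercetin, and Ftl1, in second place, 732 to 950 FPKM. Membrane transferases and catalase moved up this order with DMI. Mgst1 went from place 13 (47.5, 49.6 and 49.9 FPKM) to place 3 (298, 309 and 127 FPKM). Cat went from place 20 (31.4 to 32.5 FPKM) to place 5 (188, 191 and 76.8 FPKM), and Mgst3 from place 33 (5.31 to 7.71 FPKM) to place 10 (118, 164 and 55.1 FPKM). Gsto1 went from place 7 (94.8 to 109 FPKM) to place 17 (41.2 to 67.0 FPKM). The exact places of Mgst1, Cat and Mgst3 with DMI are not fixed. In DMI library 3 Cat, at 76.8 FPKM, lay below Gpx8 (88.5 FPKM) and Prdx2 (77.6 FPKM), which held places 13 and 14 with DMI. There Mgst1 at 127 FPKM lay below Gpx1 (162 FPKM) and Gpx4 (154 FPKM). Mgst3 at 55.1 FPKM lay below Prdx3 (59.0 FPKM) and Gsto1 (67.0 FPKM) in that library.

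Genes around these enzymes also changed with DMI. Of 81 further genes of the pathway, 66 were tested, 26 rose and 9 fell, where 14.7% of all genes rose and 12.4% fell. NADPH supply held 6 rises among 8 genes, led by the pentose phosphate enzymes Taldo1 (log2 fold change 2.42) and G6pdx (1.47), with the other 4 at 1.31 to 1.46. G6pdx was 60.6, 62.4 and 68.6 CPM untreated and 201, 228 and 102 CPM with DMI, with no overlap. Among 11 tested genes of glutathione supply and turnover 2 rose and 4 fell. Slc7a11, the cystine importer that feeds glutathione synthesis, was 29.5, 27.9 and 33.5 CPM untreated and 5.79, 4.59 and 10.2 CPM with DMI (log2 -2.14, edgeR adjusted p = 0.0064). The glutathione-degrading Chac1 (-1.69) fell as well, while Oplah (1.36), of the glutathione breakdown cycle, and Cth (0.79), which makes cysteine, rose. Cystine import and the Gclm subunit of synthesis thus moved in opposite directions at the mRNA level.

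Among other transferases and peroxidases 5 of 10 tested genes rose and 1 fell. Gstz1, which acts in tyrosine breakdown, was 28.5 to 32.4 CPM untreated and 301, 356 and 105 CPM with DMI (log2 3.07, edgeR adjusted p = 0.0006). Hpgds, prostaglandin D synthase, had a log2 fold change of 3.28 with a wide interval of 1.53 to 5.03. It held 11 counts over the untreated libraries and 103 over the DMI libraries and passed the filter through the groups where it was high, so its size is uncertain. Gsto2, the relative of Gsto1, fell (-1.12). In the thioredoxin, glutaredoxin and methionine sulfoxide reductase list 7 of 14 rose and 1 fell, led by Msra (2.09), which repairs oxidised methionine, and Glrx5 (1.32), and the gene that fell was Msrb3 (-0.77). Of 15 other NRF2 target and stress genes 6 rose and 2 fell, with Osgin1 at 1.73, Cbr3 at 1.31, the iron exporter Slc40a1 at -1.54 and Sesn2 at -0.52. Of 7 other regulators, Sqstm1, which competes with NRF2 for KEAP1, fell (-0.69) and the rest did not pass. Of the NADPH oxidases, sources of superoxide, Nox4 alone was tested and did not pass (log2 -0.93, edgeR adjusted p = 0.23).

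The next question was whether luteolin or quercetin added to DMI shifted these genes. Both comparisons share the same 3 DMI libraries, so their values are given side by side. For luteolin against DMI none of the 39 genes passed by edgeR, and 4 had an unadjusted p under 0.05. Among all genes 3 passed by edgeR (0.0202%), and 904 had an unadjusted p under 0.05. DESeq2 also called 0 of the 39, where it called 48 of all 14855 genes. For quercetin against DMI 1 of 39 passed, Fth1, and among all genes 150 (1.01%), with 0.162% higher and 0.848% lower.

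Fth1, the ferritin chain that oxidises and stores iron, lay in a tight band without flavonoid, at 2722, 2818 and 2788 CPM untreated and 2758, 2692 and 2748 CPM with DMI. It was 3634, 3319 and 3506 CPM with luteolin and 3772, 4753 and 4055 CPM with quercetin. Every flavonoid library was above every library without one, and the lowest quercetin library was above the highest luteolin library. With quercetin Fth1 rose 1.53-fold over DMI (log2 0.62, SE 0.13, interval 0.34 to 0.90, edgeR adjusted p = 0.048), a call close to the threshold. It was lost without any 1 untreated library, DMI library 1 or 2, luteolin library 1 or 2, or quercetin library 2 or 3 (adjusted p 0.069 to 0.23). With luteolin the log2 difference from DMI was 0.35 (interval 0.07 to 0.63, adjusted p = 0.72), given because Fth1 passed with quercetin. Ftl1, the other ferritin chain, had log2 differences of -0.09 with luteolin (-0.44 to 0.26) and 0.04 with quercetin (-0.31 to 0.39).

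Nqo1, a 2-electron quinone reductase and a standard NRF2 readout, was 14.1, 14.9 and 13.7 CPM with DMI. It was 18.9, 18.6 and 26.7 CPM with luteolin and 21.7, 22.9 and 20.0 CPM with quercetin. All 6 flavonoid libraries were above the 3 DMI libraries, but neither comparison passed. The log2 difference was 0.59 with luteolin (interval 0.24 to 0.93, edgeR adjusted p = 0.49) and 0.60 with quercetin (0.25 to 0.94, adjusted p = 0.080).

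Prdx6, a peroxiredoxin that also reduces phospholipid hydroperoxides, was 71.8, 77.6 and 74.1 CPM with DMI and 103, 97.2 and 95.3 CPM with luteolin, without overlap (log2 0.40, interval 0.16 to 0.65, edgeR adjusted p = 0.51). With quercetin it was 84.8, 99.0 and 77.2 CPM, of which library 3 lay within the DMI range (log2 0.22, interval -0.02 to 0.47). Sod3 was 161, 168 and 145 CPM with DMI, 131, 113 and 122 CPM with luteolin and 98.5, 121 and 128 CPM with quercetin. All 6 flavonoid libraries were below the DMI libraries, and neither difference passed (log2 -0.37, adjusted p = 0.68, and -0.45, adjusted p = 0.098).

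Cat had the largest difference from DMI with either compound among genes with a mean of at least 5 CPM. It was 492, 499 and 199 CPM with DMI, 287, 301 and 159 CPM with luteolin, and 199, 192 and 123 CPM with quercetin. The highest, middle and lowest library of each group all ranked DMI, luteolin, quercetin, but the lowest DMI library lay within the range of both other groups. The log2 difference was -0.67 with luteolin (interval -1.37 to 0.03, edgeR adjusted p = 0.84) and -1.21 with quercetin (-1.92 to -0.50, adjusted p = 0.085). Prdx3 differed by -0.40 with luteolin (-0.96 to 0.17) and -0.67 with quercetin (-1.24 to -0.10, adjusted p = 0.17). Mgst3 was 131, 149 and 75.5 CPM with luteolin, close to DMI (log2 -0.06, interval -1.20 to 1.09), and 97.0, 107 and 17.2 CPM with quercetin (log2 -0.74, interval -1.89 to 0.42). The interval for Mgst3 allows a change of over 1 log2 unit with either compound.

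Gsto1, which fell with DMI, was 116, 109 and 154 CPM with luteolin and 147, 176 and 219 CPM with quercetin, against 81.2, 91.0 and 131 CPM with DMI alone. The quercetin libraries lay above all DMI libraries, and the log2 difference was 0.84 (interval 0.40 to 1.28, edgeR adjusted p = 0.063). With luteolin it was 0.32 (-0.11 to 0.76, adjusted p = 0.92). Gpx1 was 234, 210 and 278 CPM with luteolin and 257, 322 and 393 CPM with quercetin, and the latter were all above DMI (log2 0.65, interval 0.30 to 1.00, adjusted p = 0.069). Keap1 was lower in all 3 quercetin libraries, at 69.0, 67.9 and 55.8 CPM, than in the DMI libraries (log2 -0.33, adjusted p = 0.16), while Nfe2l2 differed by 0.10 (-0.16 to 0.36).

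**Figure D4:**
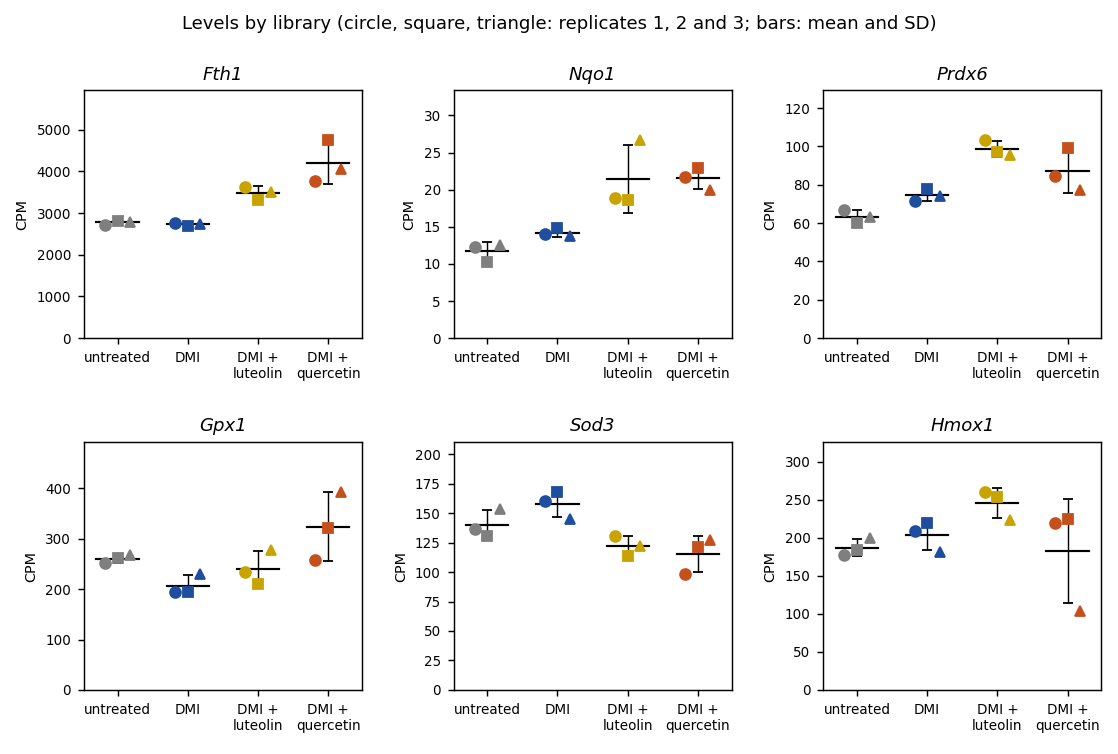
CPM (vertical) of 6 genes in every library by group (horizontal), with the mean and SD of 3 libraries; circles, squares and triangles are replicates 1, 2 and 3. Fth1 and Nqo1 were above, and Sod3 below, all DMI libraries in all 6 flavonoid libraries. Quercetin library 3 was the lowest of the 12 libraries for Hmox1 at 104 CPM and the highest for Gpx1 at 393 CPM.

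Against DMI, 8 genes were higher in all 3 luteolin libraries (Gclc by less than the digits printed here, Txnrd1, Prdx6, Gstp1, Hmox1, Fth1, Nqo1 and Ephx1), where 6.23% of all genes were, and 2 were lower (Sod3 and Gpx8), where 5.24% were. For quercetin 4 were higher (Gpx1, Gsto1, Fth1 and Nqo1), where 6.68% of all genes were, and 2 were lower (Keap1 and Sod3), where 7.35% were. The median log2 difference from DMI was -0.06 over these 39 genes with luteolin and -0.03 with quercetin, against -0.02 and 0.02 over all genes. Hmox1, which breaks down heme, was 209, 219 and 181 CPM with DMI and 260, 253 and 223 CPM with luteolin (log2 0.27, interval -0.22 to 0.77). With quercetin Hmox1 was 220, 224 and 104 CPM, so that library 3 was the lowest of all 12.

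Quercetin library 3 was also the lowest or highest library in other genes. It was the lowest of the 12 libraries for Sod1 at 89.7 CPM, Prdx5 at 49.5 CPM and Blvrb at 17.5 CPM, and the highest for Prdx1 at 513 CPM and Gpx1 at 393 CPM. Without DMI library 3, 9 antioxidant genes passed for quercetin against DMI: Fth1, Gpx1, Gsto1 and Nqo1 higher, and Cat, Sod3, Sod2, Prdx3 and Gclm lower, where 17.4% of all genes passed. Without luteolin library 3, Fth1, Gsto1 and Nqo1 passed (1.79% of all genes), and without quercetin library 1, Fth1, Gpx1 and Gsto1 (3.78% of all genes). With library 3 of every induced group left out, 23 passed for quercetin (12 higher and 11 lower, with 33.4% of all genes passing) and 12 for luteolin (4 higher and 8 lower, with 10.4% of all genes passing).

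For luteolin against DMI the replicate number as a block gave 0 calls over all 12 libraries, and 8 in the 6 libraries compared: Fth1, Hmox1, Gsto1, Prdx6 and Nqo1 higher, and Cat, Sod3 and Gsta3 lower. Of all genes 6.58% passed in that fit. DESeq2 called 6 for quercetin against DMI, where 6.62% of all genes passed: Fth1, Gpx1, Gsto1 and Nqo1 higher and Cat and Sod3 lower. In the authors' deposited table, Prdx6 and Fth1 pass 0.05 as higher with luteolin, and Cat passes as lower with quercetin. For these comparisons too, the share of all genes that pass there was not computed.

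Luteolin and quercetin were then compared with each other. By edgeR no antioxidant gene differed between them, nor did any of the 14855 genes (0.0%), while 3 antioxidant genes and 1327 genes in all had an unadjusted p under 0.05 and DESeq2 called 2 genes. The largest differences, luteolin minus quercetin, were 0.68 for Mgst3 (interval -0.47 to 1.83), 0.54 for Cat (-0.16 to 1.24), -0.51 for Gsto1 (-0.95 to -0.08), 0.51 for Mgst1 (-0.27 to 1.29) and -0.46 for Gstm5 (-0.79 to -0.13) on the log2 scale. For Nqo1 the difference was -0.01 (-0.35 to 0.33). Keap1, Gclc and Gss were higher in all 3 luteolin libraries than in any quercetin library (5.2% of all genes), and Fth1 was lower (5.07%). These intervals allow differences of up to 1.83 log2 units for Mgst3, so the absence of calls does not show that the compounds act alike.

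Each flavonoid group was also set against untreated cells. These comparisons share the untreated libraries with DMI against untreated. With DMI and luteolin 11 antioxidant genes were higher and 4 lower, where 19.3% of all genes passed (10.5% higher and 8.74% lower). With DMI and quercetin 6 were higher and 1 lower, where 9.45% of all genes passed (4.79% higher and 4.66% lower). The median log2 difference from untreated was 0.37 with luteolin and 0.35 with quercetin, against -0.03 and 0.02 over all genes. Mgst3 was 15.4-fold higher with luteolin (log2 3.95, SE 0.61, edgeR adjusted p = 0.0013) and 9.63-fold with quercetin (3.27, SE 0.60, adjusted p = 0.0061). Mgst1 was 4.50-fold higher with luteolin (2.17, SE 0.37, adjusted p = 0.0025) and 3.17-fold with quercetin (1.66, SE 0.37, adjusted p = 0.016).

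Nqo1 passed against untreated with either flavonoid, from 12.3, 10.3 and 12.5 CPM untreated. It was 1.83-fold higher with luteolin (log2 0.87, SE 0.16, edgeR adjusted p = 0.0036) and 1.84-fold with quercetin (0.88, SE 0.16, adjusted p = 0.0059), and kept both calls under each of the 22 alternatives. For DMI alone the log2 difference from untreated was 0.28 and did not pass. Prdx6, at 66.8, 59.9 and 63.0 CPM untreated, was likewise higher with luteolin (log2 0.64, edgeR adjusted p = 0.0030) and with quercetin (0.46, SE 0.11, adjusted p = 0.027). The latter was lost without any 1 untreated library or quercetin library 2 (adjusted p 0.070 to 0.12). Fth1 was 1.51-fold higher with quercetin (0.60, SE 0.13, adjusted p = 0.015), a call lost without any 1 untreated library (0.055 to 0.084).

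With luteolin the other genes that were higher than untreated were Cat (log2 1.53, SE 0.33, edgeR adjusted p = 0.0083), Sod2 (1.30, SE 0.30, 0.011), Prdx3 (1.03, SE 0.27, 0.018), Gss (0.89, SE 0.20, 0.011), Gsta4 (0.67, SE 0.17, 0.018), Gpx4 (0.61) and Gclc (0.59). Gclc, the catalytic subunit of glutathione synthesis, was 28.6, 28.2 and 27.7 CPM with luteolin, above all untreated libraries. Gpx7 (-0.73), Gsto1 (-0.70), Prdx4 (-0.63) and Gstm5 (-0.54) were lower. Leaving out 1 library ended the calls of Gss, Gpx4, Gpx7, Prdx3, Prdx4, Gsta4, Gstm5 and Gsto1, with adjusted p of 0.050 to 0.16: untreated library 1, 2 or 3 or luteolin library 1 or 2 for most, and also DMI library 1 and quercetin library 1 for Gpx4.

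With quercetin Gsta4, at 65.1, 82.0 and 55.2 CPM, was also higher than untreated (log2 0.84, SE 0.17, edgeR adjusted p = 0.011) and Prdx4 lower (-0.59, SE 0.15, adjusted p = 0.033). Cat, Sod2 and Prdx3, which rose with DMI, were above untreated without overlap (log2 0.99, 0.88 and 0.76). They did not pass by edgeR (adjusted p 0.077, 0.080 and 0.093), while all of them pass 0.05 as higher in the authors' deposited table. Leaving out 1 library ended the calls of Mgst1, Gsta4 and Prdx4: untreated library 1 or 2 or quercetin library 2 for Mgst1 and Gsta4, untreated library 3 also for Mgst1, and any 1 untreated library, luteolin library 1 or quercetin library 1 or 3 for Prdx4 (adjusted p 0.051 to 0.12). With library 3 of every induced group left out, 32 genes passed with quercetin (40.4% of all genes) and 29 with luteolin (44.9% of all genes).

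In all, 19 of the 39 tested genes passed in at least 1 of the 6 comparisons and 20 in none. The share of all genes that did so was not computed, and 27.1% passed in DMI against untreated alone. Among the 20, Txnrd1, the cytosolic thioredoxin reductase, ranged from 111 to 133 CPM over the 12 libraries. Prdx2, a cytosolic peroxiredoxin, was 225 to 254 CPM in 11 libraries and 315 CPM in quercetin library 2. Srxn1 was 58.2 to 63.9 CPM untreated, 64.0 to 77.7 CPM with DMI, 66.5 to 72.1 CPM with luteolin and 56.4 to 67.3 CPM with quercetin. The quercetin libraries of Srxn1 overlapped those of every other group.

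Txn1 was 98.5 to 110 CPM untreated and 119 to 164 CPM with quercetin, without overlap, but did not pass (log2 0.41, interval 0.13 to 0.69, edgeR adjusted p = 0.067). Prdx1, a cytosolic peroxiredoxin and NRF2 target, was 247 to 271 CPM untreated, 295 to 387 CPM with DMI, 291 to 367 CPM with luteolin and 278, 411 and 513 CPM with quercetin. All 9 induced libraries lay above the untreated ones, and the quercetin group was the widest. Prdx5, found in mitochondria, peroxisomes and cytosol, was 66.9 to 73.3 CPM untreated and 85.0 to 136 CPM with DMI. It shares 409 exon bases with Trmt112 on the opposite strand, whose mean was 32.3 CPM untreated and 25.0 CPM with DMI.

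Of the transferases that did not pass, Gstp1, the pi class enzyme, was 96.7 to 106 CPM untreated and 122 to 143 CPM with luteolin, without overlap (log2 0.37, interval -0.06 to 0.79). Gstm1, of the mu class, was 69.9 to 75.9 CPM untreated and 120, 116 and 72.1 CPM with DMI, so that only DMI libraries 1 and 2 were above the untreated range. Gstm2 was 72.2 to 78.1 CPM untreated and 66.5 to 72.0 CPM with DMI. Gstt1, of the theta class, was low in all groups, at 6.50 to 7.71 CPM untreated and 2.95 to 5.11 CPM with quercetin (log2 -0.83, interval -1.37 to -0.29, edgeR adjusted p = 0.056). Ephx1 was 77.5 to 83.5 CPM untreated, 112 to 122 CPM with luteolin (log2 0.52, interval 0.11 to 0.93, adjusted p = 0.071), and 118, 121 and 65.2 CPM with quercetin. Quercetin library 3 was again the one apart.

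In the surrounding pathway none of the 66 tested genes passed for luteolin against DMI, where 0.0202% of all genes did. With quercetin 3 fell, where 0.848% of all genes did. Gstm7 was 3.46, 3.97 and 1.29 CPM with DMI and 0.109, 0.556 and 0.184 CPM with quercetin (log2 -3.29, interval -4.54 to -2.04, edgeR adjusted p = 0.042). It held 134 counts over the DMI libraries and 16 over the quercetin libraries and passed the filter through the DMI group, so the size of its change is uncertain. Gstz1 was 301, 356 and 105 CPM with DMI and 77.3, 77.4 and 41.8 CPM with quercetin (-1.95, adjusted p = 0.049), and the pentose phosphate enzyme Tkt fell by 1.19 on the log2 scale (adjusted p = 0.048). All 3 had risen with DMI.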

How the data were processed

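RNA of 12 libraries was sequenced, 3 in each group, and groups were read from the sample titles. The authors deposited raw counts per gene. The submitters' processing notes name featureCounts 1.5.0-p3 and CASAVA 1.8.2, and no source used here gives the aligner. FPKM values that the authors deposited served to compare levels between genes. The authors' table also holds their log2 fold changes and adjusted p-values, copied where named. The notes name mm9, but 98.3% of gene positions in the table equal GENCODE M21, so coordinates are GRCm38. The 40 genes and all lists were chosen with earlier results of these data known. After the filterByExpr filter, TMM scaling and a joint fit of the 12 libraries with a common spread estimate, edgeR 4.0.16 in R 4.3.3 gave quasi-likelihood tests (Benjamini-Hochberg over 14855 genes, threshold 0.05). Named with full statistics were up to 10 called genes a comparison by size; where at most 3 were called, the 5 largest differences with a mean of at least 5 CPM were added; Hmox1, Sod3, Keap1, Blvrb and genes listed for lack of overlap were added after their values were seen. Intervals are 95% from the fit. The main fit held no pairing, and the replicate number was a block only in alternatives, fitted for every comparison. Same-numbered libraries of luteolin and DMI deviated together (r = 0.261, 0.337 and 0.59). For quercetin and DMI r was 0.068, 0.279 and 0.335. The labels do not say what the number marks. It does not separate libraries 1 and 2: luteolin library 2 had r = 0.367 with DMI library 1. Alternatives were other scalings and filters, DESeq2 1.42.0, limma-voom (limma 3.58.1), the 6 libraries compared, replicate blocks and leaving out each library.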

Additional observations from a re-analysis of the deposited data

How the results depend on the processing

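The number of antioxidant genes called depended on the libraries used, as did the number over all genes. Leaving out 1 library at a time gave 7 to 25 for DMI against untreated (12.3% to 36.6% of all genes). It gave 0 to 0 for luteolin against DMI (0.0% to 1.70%) and 0 to 9 for quercetin against DMI (0.0% to 17.4%). Between the compounds it gave 0 to 0 (0.0% to 0.0657%). Against untreated it gave 8 to 25 with luteolin, where 1181 of 15226 to 4499 of 15227 genes passed. With quercetin it gave 2 to 20 against untreated, where 458 of 15212 to 3286 of 15227 genes passed. Leaving out library 3 of every induced group was an alternative chosen after seeing the data. Its counts were 30, 12, 23, 9, 29 and 32 in the same order. Of all genes 52.8%, 10.4%, 33.4%, 13.8%, 44.9% and 40.4% passed there. In that fit Hmox1 for quercetin against untreated turned from a log2 difference of -0.03 to 0.32 (edgeR adjusted p = 0.0041). Without a low-count filter luteolin against DMI gave 1, quercetin against DMI 10, luteolin against quercetin 1 and quercetin against untreated 14. DESeq2 gave 6 for quercetin against DMI (6.62% of all genes) and 15 for quercetin against untreated, where 2174 of 14855 genes passed. Quercetin against DMI gave 0 with library totals only (0.397% of all genes) and with 1 CPM in 3 libraries (0.402%). It also gave 0 with limma-voom (0.00673%) and with only the 6 libraries compared (0.0%). Luteolin against untreated gave 29 with only the 6 libraries compared, where 5939 of 14124 genes passed. With the replicate number as a block, the 6 libraries compared gave 8 for luteolin against DMI (6.58% of all genes). For quercetin against DMI they gave 2 (5.0%), and for luteolin against untreated 28, where 5760 of 14124 genes passed. The block over 12 libraries gave 6 for quercetin against DMI (9.39% of all genes). It gave 11 for quercetin against untreated, where 2115 of 14855 genes passed. The labels do not say what the replicate number marks in any comparison. The causes were not tested, and leaving out library 3 by construction changes both the spread and the means of the induced groups. Counts of 4 to 7 limit the precision of Gsta3.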
